A study of Mus with 4 samples.

Results

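The genes described here run the division of a cell: the kinases and phosphatases of mitotic entry, the anaphase-promoting complex (APC/C) and its partners, cohesin, condensin with the type II topoisomerases, and the cytokinesis factors. A fixed list of 55 gene symbols defined the set, and every array probe set whose annotation gave 1 symbol from that list was taken. All 55 genes were on the array, with 140 probe sets, out of 18193 genes that had a probe set with 1 symbol. They were measured in PPS-ICBR cells, labelled as prostate cancer cells of the mouse strain C57Bl6 seeded at 60% confluency in DMEM with serum and P/S. Cells of 2 samples had 5 µM vorinostat dissolved in DMSO overnight, and those of the other 2 had DMSO alone (5 µL in 10 mL of medium). Vorinostat is a hydroxamic acid inhibitor of histone deacetylases. Each RNA sample went onto its own Affymetrix expression array, so every group mean below has n = 2. The labels do not state that the samples of a group were grown separately, so each p-value covers only the spread between these arrays, which may be technical.

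As background, a cell enters mitosis when the kinase CDK1 is switched on: the CDC25 phosphatases take off inhibitory phosphates that the kinases WEE1 and PKMYT1 put on. Polo-like and Aurora kinases then build the spindle, condensin and topoisomerase II compact and untangle the chromosomes, and cohesin rings hold sister chromatids together. The APC/C, a ubiquitin ligase, marks securin and cyclins for destruction, which frees separase to cut cohesin, and anillin, ECT2 and their partners then pinch the cell into its daughters. Many transcripts of this machinery are made mostly late in the cell cycle and are abundant in dividing cultures, while the core subunits of the APC/C and of cohesin are transcribed more evenly.

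Values are log2 expression as deposited. Where a gene has several probe sets, the brightest on average over all arrays stands for it. Changes are vorinostat minus DMSO on the log2 scale with their standard error (SE) and, unless stated otherwise, a Benjamini-Hochberg adjusted p from limma fitted to all 45037 probe sets, with 0.05 as the threshold. The median gene of the array changed by 0.03. The members' median lay at 7.85 and 7.92 on the vorinostat arrays and at 9.15 and 9.07 on the DMSO arrays. Within a group, the widest gap between the arrays for the brightest probe set of any member was 0.40, for Espl1 in DMSO. Over all member probe sets, 1 was over 2-fold apart within a group, a dim one of Ube2s (3.09 and 4.22 with vorinostat). The 3′ minus 5′ difference of the actin control probe sets was between -0.00 and 0.04 on all arrays. A ribosomal RNA 3′ control probe set was at 11.91 and 11.72 on the vorinostat arrays, and at 11.02 on DMSO 1 and 11.76 on DMSO 2, so DMSO 1 stood apart on it. Its part in the results was not tested. The member counts without each array are given with them.

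Of the cell type markers, 7 were epithelial. Of these, Krt8 (11.11 and 11.40 with vorinostat, 12.25 and 12.36 with DMSO) fell by 1.05 and Krt19 (9.18 and 9.36, against 8.21 and 8.13) rose by 1.10. The other 5 did not pass: Krt18 lay between 11.37 and 11.51, Epcam and Cdh1 between 7.65 and 7.97, and the basal keratins Krt5 and Krt14 between 4.52 and 5.43. The prostate transcription factor Hoxb13 (8.75 and 8.82, against 8.24 and 8.24) rose by 0.54. The prostate secretory gene Pbsn lay near background on all 4 arrays (2.00 to 2.24). Of 6 fibroblast markers, 3 were higher with vorinostat (Pdgfra by 1.54, Dcn by 1.26, Vim by 0.40), 1 was lower (Pdgfrb, -2.49) and 2 did not pass. Pdgfra lay between 5.38 and 7.02, Dcn between 9.13 and 10.55, and Pdgfrb between 6.52 and 9.14. Vim lay between 13.05 and 13.47, Col1a2 between 12.40 and 12.68, and Col1a1 between 6.18 and 6.73. On every array Vim and Col1a2 read above all 7 epithelial markers. The other 2 prostate markers measured, Trp63 and Tmprss2, lay between 4.10 and 5.13. Of 4 immune markers, Ptprc (1.99 to 2.29), Itgam and Adgre1 lay near background in both groups, and Cd3e was higher with vorinostat (4.96 and 4.91, against 4.44 and 4.57). None of 3 endothelial markers passed the limma threshold (0 at an unadjusted p under 0.05 too). The part of these marker changes in the results was not tested. In bulk RNA, fewer cells that express a gene and less of its RNA per cell cannot be told apart.

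Vorinostat-treated cells had less RNA of most of the division machinery. Of the 55 genes, 44 fell, 4 rose and 7 did not pass the threshold, where 18.9% of all genes fell and 20.9% rose (39.9% in either direction). The members' median change was -1.16. At least 2-fold falls were found for 30 members (6.17% of all genes), at least 4-fold falls for 14 (1% of all genes) and at least 8-fold falls for 3 (0.115% of all genes), namely Fbxo5, Plk1 and Aurkb. In 46 members both vorinostat arrays lay below both DMSO arrays, which was so for 31.6% of all genes. In 7 they lay above (37.3% of all genes), so that the groups did not overlap in 53 members, against 68.9% of all genes. The 100 largest falls on the array included 10 members, and the largest of all was that of Fbxo5. The number of members that fell was 39 without Vorinostat 1, 41 without Vorinostat 2, 40 without DMSO 1 and 41 without DMSO 2. The number that rose was 4 without Vorinostat 2 and 3 when any other array was left out.

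**Figure D1:**
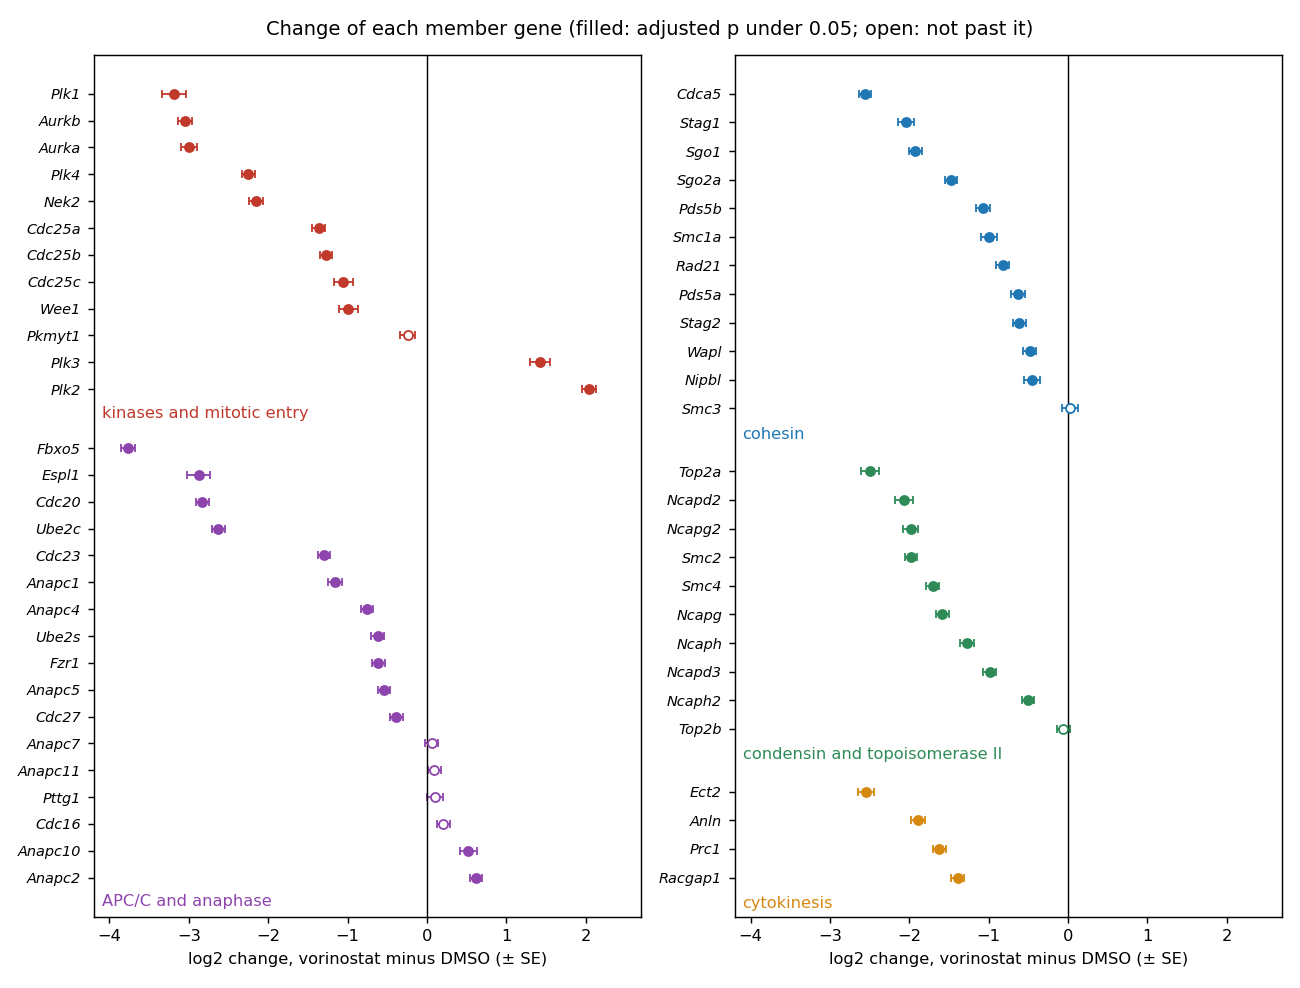
Log2 change (vorinostat minus DMSO, x axis) with its SE for each of the 55 genes (y axis), grouped by role, from 2 arrays a group. Filled points passed the adjusted p threshold of 0.05: 44 lie left of 0 and 4 right of it, while 7 open points lie near 0.

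Among the kinases and phosphatases of mitotic entry, 9 of 12 fell and 2 rose, with a median change of -1.32. Of all genes, 18.9% fell and 20.9% rose, so the share of rises here was near that of all genes. Plk1, the polo-like kinase that acts from mitotic entry to cytokinesis, read 6.55 and 6.91 on the vorinostat arrays and 10.03 and 9.80 on the DMSO arrays. The groups lay far apart, and Plk1 fell by 3.19 (SE 0.15, adjusted p = 0.000237), or 9.10-fold. Aurkb, the Aurora kinase of the chromosomal passenger complex, read 5.20 and 5.31 with vorinostat and 8.26 and 8.34 with DMSO, a change of -3.05 (SE 0.09, adjusted p = 0.00016). The _x_at suffix of this probe set marks possible cross-hybridisation. The other Aurkb probe set gave -3.16 but ends in _s_at, so Aurkb had no probe set with the plain suffix _at. Aurka, the Aurora kinase of spindle poles, read 6.63 and 6.78 with vorinostat, against 9.78 and 9.62 with DMSO (-2.998, SE 0.10, adjusted p = 0.00016). Neither Aurora kinase had overlapping groups. Plk4, which starts centriole duplication, fell by 2.25 (SE 0.08), with its other probe sets at -2.12 and -2.16. Nek2, a kinase that splits centrosomes, fell by 2.16 (SE 0.08). Its dimmer probe sets changed by -2.21 and -0.60, which passed, and by 0.04 near background, which did not.

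The other polo-like kinases went the other way. Plk2, known as a stress- and serum-induced kinase with roles outside mitosis, read 11.92 and 11.80 with vorinostat and 9.87 and 9.77 with DMSO. It rose by 2.04 (SE 0.09, adjusted p = 0.000222), or 4.12-fold. Plk3, also known from stress responses, read 8.28 on both vorinostat arrays, against 7.02 and 6.69 with DMSO, and rose by 1.42 (SE 0.13, adjusted p = 0.001). The vorinostat arrays of Plk2 and Plk3 lay above their DMSO arrays without overlap. These were the only members that rose at least 2-fold, as 5.74% of all genes did.

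All 3 phosphatases that activate CDK1 fell, and so did 1 of its 2 inhibitory kinases, where 18.9% of all genes fell. The phosphatases Cdc25a (-1.37, SE 0.08), Cdc25b (-1.27, SE 0.08) and Cdc25c (-1.06, SE 0.12) fell by 2.08-fold to 2.58-fold. Wee1, the nuclear inhibitory kinase, read 7.44 and 7.14 with vorinostat and 8.34 and 8.21 with DMSO, a change of -0.99 (SE 0.12, adjusted p = 0.00305). Without DMSO 1 its adjusted p was 0.0583. Pkmyt1, the membrane-bound inhibitory kinase, read 7.04 and 7.01 with vorinostat and 7.17 and 7.36 with DMSO. Its change of -0.24 (SE 0.10, adjusted p = 0.122) did not pass, although its dimmer probe set fell by 0.65 (adjusted p = 0.0042).

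**Figure D2:**
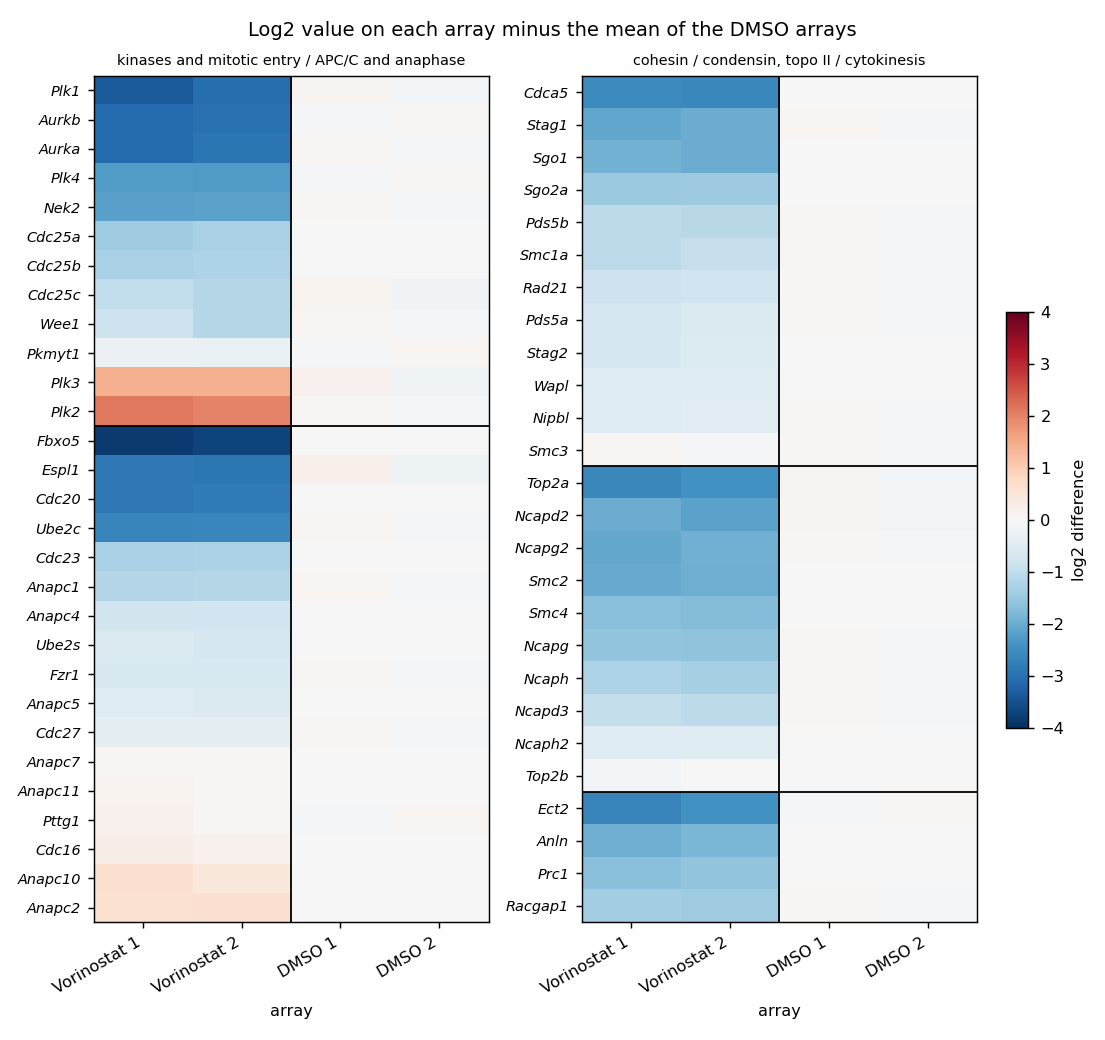
Log2 value of each gene (rows) on each array (columns: Vorinostat 1 and 2, then DMSO 1 and 2) minus the mean of its DMSO arrays; blue is lower and red higher. The vorinostat columns match each other closely, from the deep blue of Fbxo5 (-3.77 on average) to the red of Plk2 (2.04).

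In the APC/C group, 11 of 17 genes fell and 2 rose, where 18.9% of all genes fell and 20.9% rose. The median change was -0.61, and the size of the change differed by role. Fbxo5, which encodes EMI1, the inhibitor that keeps the APC/C off until mitosis, read 5.27 and 5.38 on the vorinostat arrays and 9.10 and 9.09 on the DMSO arrays. It fell by 3.77 (SE 0.08, adjusted p = 0.00016), or 13.6-fold. Espl1, which encodes separase, read 5.64 and 5.59 with vorinostat and 8.69 and 8.29 with DMSO (-2.88, SE 0.15, adjusted p = 0.000265). Cdc20, the coactivator that starts anaphase, read 8.02 and 8.08 with vorinostat and 10.85 and 10.91 with DMSO. It fell by 2.83 (SE 0.08, adjusted p = 0.00016), read from an _x_at probe set. Its other probe sets fell by 3.17 (plain _at) and 1.68 (_x_at). Fzr1, which encodes CDH1, the coactivator of late mitosis and G1, read 7.87 and 7.85 with vorinostat and 8.52 and 8.42 with DMSO, a fall of 0.61 (SE 0.08, adjusted p = 0.00364).

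The E2 enzymes that hand ubiquitin to the APC/C also differed in size. Ube2c, which starts the chain, read 9.09 and 9.10 with vorinostat and 11.79 and 11.65 with DMSO (-2.63, SE 0.09). Ube2s, which extends it, read 11.38 and 11.29 with vorinostat and 11.97 and 11.94 with DMSO (-0.62, SE 0.08). Pttg1, which encodes securin, the inhibitor of separase, read 10.45 and 10.32 with vorinostat and 10.20 and 10.36 with DMSO. The arrays overlapped and its change was 0.11 (95% interval -0.15 to 0.36, adjusted p = 0.495). Its other probe sets, at -0.08 and 0.02, did not pass either.

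The 10 core subunits of the APC/C had a median change of -0.17, with 5 lower, 2 higher and 3 not past the threshold. Of all genes, 18.9% fell and 20.9% rose, so the share of rises among the subunits was near that of all genes. Cdc23 (-1.29, SE 0.08) and Anapc1 (-1.16, SE 0.09) fell most, by 2.45-fold and 2.23-fold. Anapc4 (-0.75), Anapc5 (-0.54) and Cdc27 (-0.39) fell less. All 6 probe sets of Anapc5 fell, between -0.75 and -0.48, whereas for Cdc27 only the brightest of 4 passed, and it failed to pass whichever array was left out (adjusted p between 0.0595 and 0.0979). Anapc2, the cullin subunit of the ligase core, read 8.77 and 8.79 with vorinostat and 8.15 and 8.17 with DMSO, and rose by 0.62 (SE 0.08, adjusted p = 0.00281). Anapc10, which helps to bind substrates, read 9.03 and 8.81 with vorinostat and 8.42 and 8.37 with DMSO, and rose by 0.52 (SE 0.10, adjusted p = 0.0153). The rise of Anapc10 did not pass without Vorinostat 1 (0.41), DMSO 1 (0.55) or DMSO 2 (0.50), although another probe set rose by 0.46. Cdc16 (0.20), Anapc7 (0.06) and the RING subunit Anapc11 (0.09) did not pass. Within the same enzyme, the changes of core subunits therefore spanned -1.29 to 0.62.

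The cohesin genes had a median change of -0.91. Read from their brightest probe sets, 11 of 12 fell and 0 rose, where 18.9% of all genes fell and 20.9% rose. By limma, 0 rose at an unadjusted p under 0.05 as well. By median, the 3 genes that protect cohesion (-1.93) lay below the 5 ring subunits (-0.82) and the 4 regulators (-0.56), with no test of the difference. Cdca5, which encodes sororin, read 6.70 and 6.66 with vorinostat and 9.25 and 9.24 with DMSO (-2.56, SE 0.08, adjusted p = 0.00016). Sgo1, which encodes the centromeric protector shugoshin, read 6.88 and 6.78 with vorinostat and 8.76 and 8.76 with DMSO (-1.93, SE 0.08, adjusted p = 0.0002). The related Sgo2a fell by 1.47 (SE 0.08).

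The ring itself was uneven. Smc3, an ATPase of the ring, read 9.16 and 9.03 with vorinostat and 9.15 and 8.99 with DMSO, with overlapping arrays (95% interval -0.22 to 0.28, adjusted p = 0.885). Its partner Smc1a read 9.02 and 9.15 with vorinostat and 10.15 and 10.01 with DMSO (-0.997, SE 0.10), and other Smc1a probe sets fell by 1.04 and 1.21. Rad21, the subunit that separase cuts, fell by 0.82 (SE 0.08), and its other probe sets by 0.63 and 1.32. Stag1, a peripheral subunit with chromosome-arm and telomere functions, read 7.07 and 7.16 with vorinostat and 9.24 and 9.07 with DMSO. It fell by 2.04 (SE 0.10, adjusted p = 0.000242). In all, 5 of 6 Stag1 probe sets fell, with changes of -2.42 to -2.04, and the sixth, a dim probe set, was at 0.25 and did not pass. Its paralog Stag2 read 8.49 and 8.59 with vorinostat and 9.18 and 9.12 with DMSO, a fall of 0.61 (SE 0.08).

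Of the factors that load, hold or release cohesin, Pds5b fell by 1.07 (SE 0.09) and Pds5a by 0.63 (SE 0.09). Pds5a did not pass without Vorinostat 1 (adjusted p = 0.054), and its other probe sets lay near background. Nipbl, the loader, read 7.29 and 7.39 with vorinostat and 7.89 and 7.70 with DMSO. It fell by 0.46 (SE 0.10, adjusted p = 0.0203), failed to pass whichever array was left out (adjusted p between 0.051 and 0.137), and none of its other 4 probe sets passed. Wapl, which opens the ring, was the 1 gene whose probe sets passed in opposite directions. The brighter read 9.37 and 9.39 with vorinostat and 9.87 and 9.86 with DMSO (-0.49, SE 0.08, adjusted p = 0.00649), while another rose by 0.31 (SE 0.08, adjusted p = 0.038). The brighter did not pass without Vorinostat 1, Vorinostat 2 or DMSO 1 (adjusted p between 0.0518 and 0.0583). The deposited values give Wapl no single direction, although with all 4 arrays its brightest probe set counts it among the falls. The cohesin genes that fell numbered 8 without Vorinostat 1, 9 without Vorinostat 2, 9 without DMSO 1 and 10 without DMSO 2.

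**Figure D3:**
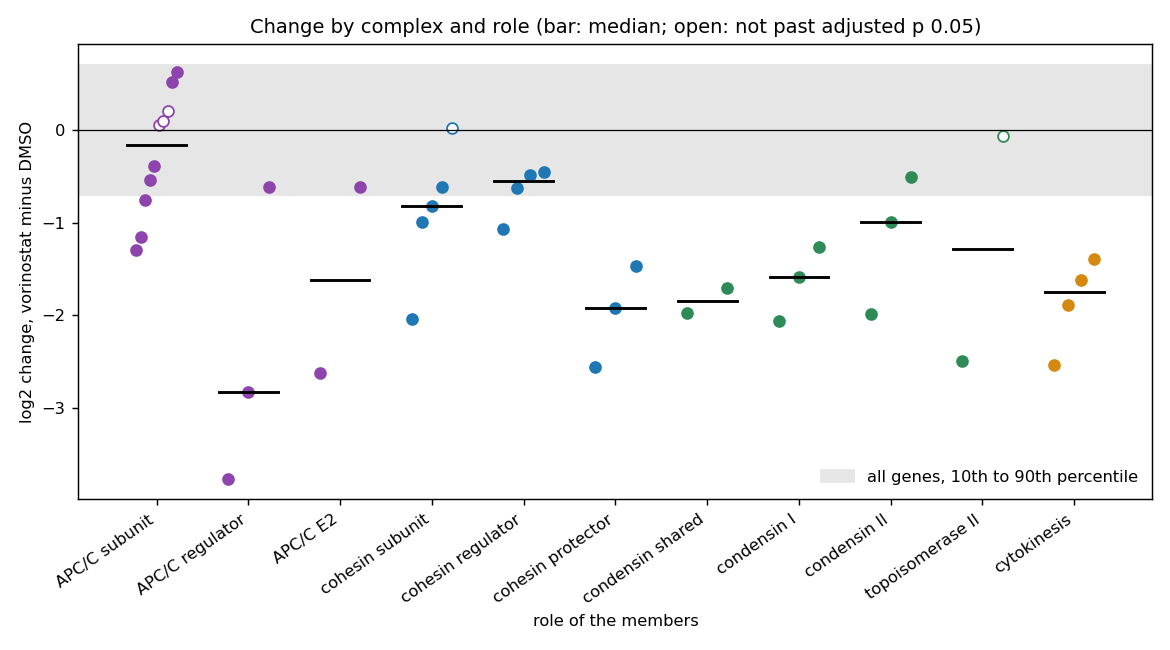
Log2 change (vorinostat minus DMSO, y axis) of members by role (x axis); bars are medians, open points did not pass the adjusted p threshold, and the grey band spans the 10th to 90th percentile of all genes (-0.70 to 0.71). APC/C core subunits centre at -0.17, inside the band, whereas cohesin protectors (-1.93), condensin I (-1.59) and cytokinesis genes (-1.76) lie below it.

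All 8 condensin genes fell, where 18.9% of all genes did. The ATPases shared by condensin I and II, Smc2 and Smc4, fell by 1.98 (SE 0.08) and 1.71 (SE 0.08). All 5 Smc2 probe sets fell, the dimmest by 0.74, and the 3 of Smc4 changed by -1.76 to -1.71. Of the condensin I subunits, Ncapd2 read 6.71 and 6.56 with vorinostat and 8.82 and 8.58 with DMSO (-2.07, SE 0.11, adjusted p = 0.000304). The dimmer probe set of Ncapd2, at -0.34 with overlapping arrays, did not pass (adjusted p = 0.373). Ncapg fell by 1.59 (SE 0.08) and Ncaph, the kleisin of condensin I, by 1.27 (SE 0.09). Of the condensin II subunits, Ncapg2 read 6.94 and 7.07 with vorinostat and 9.04 and 8.94 with DMSO (-1.98, SE 0.09, adjusted p = 0.000228). Ncapd3 fell by 0.99 (SE 0.09) and Ncaph2 by 0.51 (SE 0.08). Ncaph2 did not pass without Vorinostat 1 (adjusted p = 0.0578) or DMSO 2 (0.0504), while its dimmer probe sets fell by 0.86 and 0.99 and a still dimmer one, at -0.83, did not pass. The median change was -1.59 over the 3 subunits of condensin I and -0.99 over the 3 of condensin II.

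Type II topoisomerases pass a DNA double strand through another. Top2a, the form of dividing cells, read 7.76 and 7.94 with vorinostat and 10.45 and 10.25 with DMSO, a fall of 2.50 (SE 0.11, adjusted p = 0.000225) or 5.65-fold. Its dimmer probe sets changed by -1.04, which passed, and by 0.22 near background, which did not. The probe set standing for Top2a ends in _a_at, and with such probe sets left out the change was -1.04. Top2b, the form also found in resting cells, read 8.46 and 8.55 with vorinostat and 8.56 and 8.57 with DMSO. Its change of -0.06 (95% interval -0.27 to 0.14, adjusted p = 0.628) did not pass, although of its dimmer probe sets 1 fell by 0.83 (adjusted p = 0.0026) and another was at -0.38.

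All 4 cytokinesis genes fell, where 18.9% of all genes did, with a median change of -1.76. Ect2, which activates RhoA at the cleavage furrow, read 7.34 and 7.55 with vorinostat and 9.94 and 10.04 with DMSO (-2.54, SE 0.10, adjusted p = 0.000185). Anln, the scaffold anillin, read 8.98 and 9.12 with vorinostat and 10.96 and 10.92 with DMSO (-1.89, SE 0.09, adjusted p = 0.000228). Prc1, which bundles the microtubules of the spindle midzone, read 8.40 and 8.48 with vorinostat and 10.08 and 10.04 with DMSO (-1.62, SE 0.08, adjusted p = 0.000264). Racgap1, the centralspindlin subunit that recruits ECT2, fell by 1.39 (SE 0.08). All 4 genes passed whichever array was left out.

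Related genes were set against each other in 16 pairs, by the difference of their log2 values within each array. In 14 pairs the ranges of both groups lay apart. For single genes that was so in 68.9% of all genes, and for other gene pairs the share was not computed. With 4 arrays an exact two-sided permutation test cannot give a p below 0.333, which these 14 pairs reached (0.381 after adjustment over the 16 pairs), so no pair could pass. The difference, change of the first gene minus that of the other, was -5.23 for Plk1 and Plk2 and -4.61 for Plk1 and Plk3. It was -2.44 for Top2a and Top2b, -2.22 for Cdc20 and Fzr1, -2.01 for Ube2c and Ube2s, and -1.43 for Stag1 and Stag2. For condensin I against condensin II subunits it was -1.08 (Ncapd2 and Ncapd3), -0.76 (Ncaph and Ncaph2) and 0.40 (Ncapg and Ncapg2). Aurka and Aurkb overlapped, with a difference of 0.05. The gap of Top2a and Top2b depended on the probe sets: with the mean of all of them Top2a changed by -1.11 and Top2b by -0.42.

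**Figure D4:**
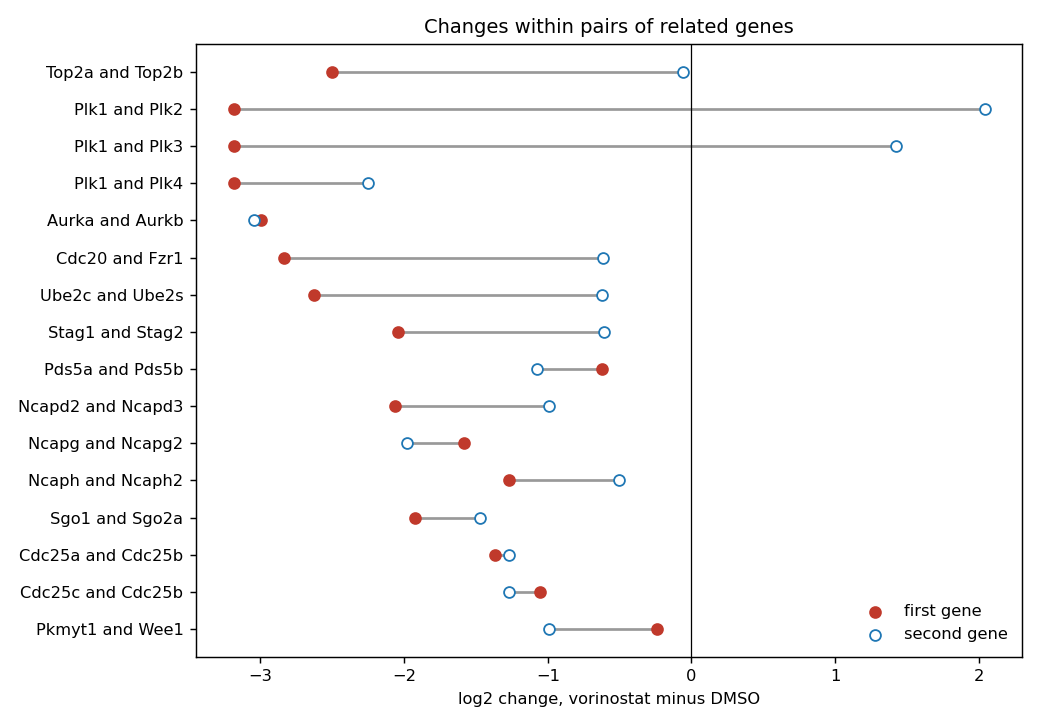
Log2 changes (vorinostat minus DMSO, x axis) of the genes of 16 pairs (rows); filled red points are the first-named gene, open blue points the other. The widest gap is that of Plk1 (-3.19) and Plk2 (2.04), the narrowest that of Aurka (-2.998) and Aurkb (-3.05).

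Over all probe sets of the members, 96 of 140 fell, 6 rose and 38 did not pass, where 15.7% of all probe sets tested fell and 16.5% rose. In 17 of them all 4 arrays lay near background, under the highest value of the probe sets for a bacterial transcript taken as not spiked in plus 1 log2 unit (a limit of 3.78, chosen after the values were seen), and 3 of these fell. Of the other 123, 93 fell, 6 rose and 24 did not pass. Of 44 genes with more than 1 probe set, 21 had all of them lower and 1, Anapc10, all of them higher. In 11 genes the changes spanned more than 1 on the log2 scale. The mean over all probe sets of a gene, dim ones included, changed by 1.08 for Plk2, -1.79 for Aurka, -1.23 for Nek2, -0.65 for Pds5b, -0.27 for Pds5a, -1.20 for Ncapd2, -0.80 for Ncaph2 and -1.11 for Top2a, which all still passed, while Wapl (-0.046) and Nipbl (-0.25) no longer did. Without probe sets of the suffixes _s_at, _x_at and _a_at, Cdc23 was read from a probe set near background (-0.29). Across the 55 genes the DMSO level and the change had a Pearson r of -0.23 and a Spearman rho of -0.22. They are given as a description, since the points share the same 4 arrays. The DMSO mean is also subtracted within the change, which by itself can pull such values below 0.

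**Figure D5:**
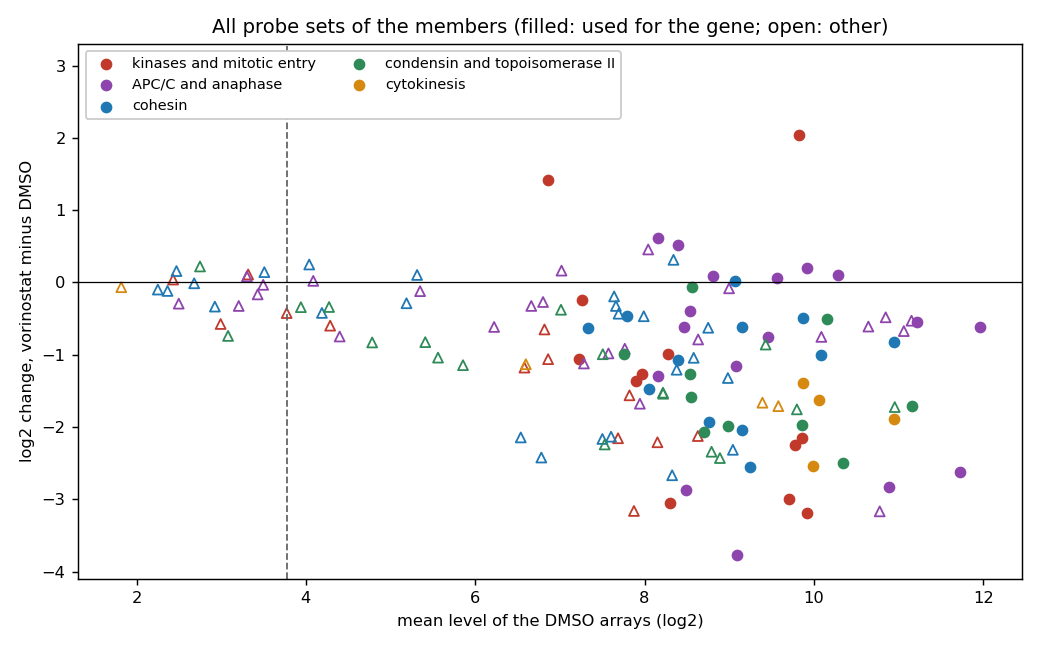
Log2 change (vorinostat minus DMSO, y axis) against the mean DMSO level (log2, x axis) for all 140 probe sets; filled points represent their gene, open triangles are its other probe sets, and the dashed line marks the near-background limit of 3.78. Left of the line the lowest change is that of a Smc2 probe set (-0.74), and the deepest falls, to -3.77 for Fbxo5, lie right of it.

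Other genes of the same processes were taken from 6 lists, to be read beside the 18.9% of all genes that fell and the 20.9% that rose, with 65 measured genes, of which 33 fell and 10 rose. Of 17 other mitotic kinases and activators, 11 fell and 3 rose (median -1.44). Aurkc among them was dim (3.45 to 3.87). The kinase Pbk (-3.04, SE 0.08) and Cdk1 itself (-2.81, SE 0.10) fell most, and Nek7 (0.59, SE 0.08) and the PP2A inhibitor Ensa (0.47, SE 0.09) rose. The rises numbered 1 without Vorinostat 1, Vorinostat 2 or DMSO 2 and 2 without DMSO 1, and the falls 10 without DMSO 1 or DMSO 2. Of 17 other cytokinesis and chromosomal passenger genes, 10 fell and 4 rose (median -0.55), with Kif20a (-3.13, SE 0.08) and Birc5 (-2.69, SE 0.08) falling most. A further fall, that of Kif14, named after its values were seen, lay near background in both groups. The rises there, led by the ESCRT subunit Tsg101 (0.50, SE 0.08) and the GTPase Rhoa (0.47, SE 0.08), numbered 0 without Vorinostat 1 or DMSO 1 and 1 without Vorinostat 2 or DMSO 2. The falls there numbered 8 without Vorinostat 1 or DMSO 1 and 9 without Vorinostat 2 or DMSO 2.

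Among 9 further APC/C subunits and checkpoint partners, 5 fell and 1 rose (median -0.55), with 4 falls when any array but Vorinostat 1 was left out. The checkpoint protein genes Mad2l1 (-1.95, SE 0.11) and Bub3 (-1.16, SE 0.08) fell most, and the small subunit Anapc13 rose by 0.71 (SE 0.08). Of 7 genes of SCF, a cullin ubiquitin ligase, 2 fell and 2 rose (median 0.14), shares near those of all genes. Those shares include Rbx1, which was dim on all 4 arrays (3.81 to 4.22), where a fall could hardly show. The substrate receptor Skp2 (-1.41, SE 0.08) and the cullin Cul1 (-1.36, SE 0.09) fell, and the adaptor Skp1 (0.81, SE 0.08) and the receptor Fbxw7 (0.71, SE 0.10) rose. Without Vorinostat 1, 1 SCF gene rose.

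Of 8 measured genes among other cohesin factors, 2 fell and 0 rose (median 0.05), a share of falls near that of all genes. That share and median include Stag3 (2.87 to 3.18) and Smc1b (2.76 to 2.93), near background in both groups, where a fall could hardly show. Rec8 (3.60 to 3.99) was dim too. Esco2, which acetylates SMC3 in S phase, fell by 2.87 (SE 0.11) and the insulator protein gene Ctcf by 1.38 (SE 0.10). By limma, 0 rose at an unadjusted p under 0.05 as well. Of 7 genes of the SMC5/6 complex, the related genome-maintenance complex, 3 fell and 0 rose (median -0.33), with Nsmce4a (-1.39, SE 0.08) and Smc6 (-0.99, SE 0.09) falling most. The other 4 passed only an unadjusted limma p of 0.05, 3 with negative changes (Smc5 at -0.33, Nsmce1 and Nsmce3 at -0.28) and Nsmce2 at 0.27, with adjusted p between 0.0531 and 0.0582.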

How the data were processed

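The values, as deposited by the authors, are log2 expression of each probe set. Tools listed in the submitters' processing notes are the Transcriptome Analysis Console and RMA, without versions. RMA as usually defined equalises the arrays' distributions, so a change shared by all transcripts would not show. No genome build is stated, and neither sequences nor coordinates were used. The table held 45101 probe sets. Leaving out 64 controls gave 45037, of which 34945 had 1 symbol in the platform annotation, 932 several and 9160 none. The groups were compared in limma 3.58.1 (R 4.3.3, lmFit and eBayes, 3.26 prior degrees of freedom), with no filter and no further normalization. The fit was tested on simulated data with independent noise for each probe set, in which far fewer probe sets changed than were called here. That could not test whether the samples of a group were grown separately. The number of arrays limits the precision. Alternatives were a replicate block, each array left out, a variance trend, a level filter, array scalings, probe set choices and a threshold of 0.01. Named in full were up to 3 falls and 3 rises per role group, and genes with probe sets called in opposite directions. The members, lists and tests were chosen with earlier results of these data known. Same-numbered arrays did not deviate together (correlation of deviations -0.06).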

Additional observations from a re-analysis of the deposited data

How the results depend on the processing

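Of the 48 members past the threshold, 40 passed in every alternative run that had a probe set for them. The other 8 were lost in at least 1 (Wee1, Cdc27, Anapc10, Ube2s, Wapl, Pds5a, Nipbl and Ncaph2). With the replicate block, 43 members fell and 4 rose, Nipbl no longer passing (adjusted p = 0.0645), over all genes 2892 fell and 3103 rose, and the rises among other cytokinesis genes came to 2. That block changed no other member's call, and the numbers are not known to pair the arrays. With arrays left out, 2046 to 2326 genes fell and 2094 to 2381 rose, against 3444 and 3806 with all 4, in fits with fewer samples. The rises then ranged from 1 to 2 for the APC/C group, 1 to 2 for other mitotic kinases, 1 to 2 for SCF and 0 to 1 for other cytokinesis genes, and the difference of Aurka and Aurkb from -0.068 to 0.167, negative without DMSO 2. At a threshold of 0.01, 2509 genes rose, with 1 rise in the APC/C group, 1 among other mitotic kinases and 2 among other cytokinesis genes. Leaving out probe sets ending in _s_at, _x_at or _a_at left 48 of the 55 members measured. Aurkb, Cdc25b, Cdc25c, Ncapg, Ect2, Racgap1 and Prc1 then had no probe set and were not tested. The 1 cytokinesis member left fell. That choice turned Cdc16 to -0.033, Anapc11 to -0.17 and Pds5a to 0.14, read from dim probe sets. Smc3 turned to -0.038 without Vorinostat 1 and -0.055 without DMSO 2 (up to 0.107 with other arrays left out), and to -0.035 with arrays centred on their medians, which also put Anapc7 at -0.0026. Scaling on 6 reference genes, whose mean change was -0.06, put Top2b at 0.0011. Of the 7 members not past the threshold, 3 passed in at least 1 alternative: Top2b (-0.42, adjusted p = 0.00804) and Pkmyt1 (-0.45, adjusted p = 0.00752) with the mean of all probe sets, and Cdc16 (0.20, adjusted p = 0.0124) with the intensity trend. With the mean of all probe sets the Cdc25a and Cdc25b difference became 0.16, 1 other cohesin gene rose and 5 SMC5/6 genes fell. SMC5/6 falls came to 6 with an intensity trend, with probe sets above the median level and with median centring. SMC5/6 had 1 rise, and other APC/C genes 2, with the trend, the level filter, reference scaling or the mean of probe sets. The cause was not tested for these.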
